A study of Mus musculus with 2 samples.

Results

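Chemokines of the CXC family were compared between 2 cultures of mouse chondrocytes, together with Cx3cl1, the ligand known as fractalkine. The members were 9 named ligands looked up by symbol in the deposited table, and 8 of the 9 were found among its 13138 genes. The expression of Cxcl2 was not analysed here. The 8 were grouped by textbook role as neutrophil-attracting (Cxcl1 and Cxcl5), interferon-induced (Cxcl9 and Cxcl10), membrane-anchored (Cxcl16 and Cx3cl1) and constitutive (Cxcl12 and Cxcl14) ligands. All 8 were above the minimum used for comparison, a mean of 50 on the linear count scale, which 12809 genes passed.

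The cultures were primary chondrocytes of strain C57Bl/6 grown ex vivo as micromasses, dense drops of cells that form cartilage-like tissue. One culture, labelled Hdac3 knockout, was transduced with an adenovirus carrying Cre recombinase, which excises DNA between loxP sites. The other, labelled wild type, received the control virus, which carries the gene of green fluorescent protein (GFP). The sources used here do not give the age of the animals, how many were pooled, which part of Hdac3 is removed, or whether the control cells carry the same allele, and the genotype label and the viral cargo cannot be told apart. Hdac3 encodes a histone deacetylase of nuclear corepressor complexes, and the series asked how its loss alters gene expression in chondrocytes. Each group held 1 library, so every difference compares 2 libraries and not the conditions, and no difference has a p-value or a replicate error. The deposited values are normalized counts on the log2 scale, the depth of the libraries is unknown, and every difference is Cre minus GFP by the labels. Pairs of values give the library labelled Cre first. Folds are folds of these transformed values, and differences of low genes are understated if the transform was a regularized log, as a column heading in the table hints.

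Hdac3 itself had a log2 value of 10.68 in the library labelled Cre against 10.69 in that labelled GFP, which does not bear out the label, although a total over the whole gene can miss the loss of some exons. The defining chondrocyte markers were abundant in both libraries, and 8 of 8 were in the table. All 8 were lower in the library labelled Cre, where 49.9% of all genes compared were higher. Acan, the aggrecan core protein gene, stood at 16.29 against 17.12.

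CXC chemokines are small secreted proteins named for a pair of cysteines separated by another residue. Ligands with a glutamate-leucine-arginine motif before those cysteines, among them Cxcl1, Cxcl2 and Cxcl5, act on Cxcr2 and draw neutrophils out of the blood. Their genes are classical targets of NF-kappaB and their short-lived mRNAs carry AU-rich elements. Cxcl9 and Cxcl10 lack that motif, bind Cxcr3 on activated T cells and are induced by interferons. Cxcl12 is a homeostatic ligand of Cxcr4 that retains blood stem cells in bone marrow. Cxcl16 and Cx3cl1 are made as membrane proteins with a chemokine head on a stalk and are shed by ADAM proteases. Chondrocytes of inflamed joints are a known source of neutrophil-attracting chemokines.

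The sequence just before the transcription start is shown for 4 members. They set the promoter of the ligand with the largest difference and of an interferon-induced one beside that of a constitutive one. The windows come from RefSeq on GRCm38.p6 and run 5′ to 3′ on the strand of the gene. Capitals mark matches to the NF-kappaB consensus and to the interferon response element GAAANNGAAA, each searched on both strands. Cxcl1 is at chr5:90891115-90891214 (plus strand), Cxcl2 at chr5:90903769-90903868 (plus strand), Cxcl10 at chr5:92348970-92349119 (minus strand) and Cxcl12 at chr6:117168405-117168504 (plus strand).
Cxcl1: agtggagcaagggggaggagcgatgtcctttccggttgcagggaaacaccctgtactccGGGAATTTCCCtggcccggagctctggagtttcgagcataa
Cxcl2: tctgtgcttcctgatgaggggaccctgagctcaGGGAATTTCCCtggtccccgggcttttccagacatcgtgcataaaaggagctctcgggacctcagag
Cxcl10: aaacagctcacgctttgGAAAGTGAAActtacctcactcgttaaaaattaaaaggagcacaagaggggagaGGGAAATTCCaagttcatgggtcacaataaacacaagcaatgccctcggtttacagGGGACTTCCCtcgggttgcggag
Cxcl12: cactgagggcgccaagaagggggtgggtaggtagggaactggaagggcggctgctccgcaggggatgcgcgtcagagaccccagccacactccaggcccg

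Over the full windows of 300 bases, 250 before and 50 after the start, 7 of the 9 members had an entry, and Cxcl5 and Cxcl16 had none. Cxcl1 and Cxcl2 held the same letters, GGGAATTTCC, starting 71 and 97 bases before the start, and in each a match on the other strand overlapped it, shifted by 1 base. Those letters occurred in 0.0883% of all 32851 windows on either strand. Cxcl10 held 2 matches to the NF-kappaB consensus, GGGAAATTCC at 159 and GGGACTTCCC at 103 bases before the start, and the interferon response element GAAAGTGAAA 213 bases before it. The NF-kappaB consensus occurred in 4.51% of all windows, the interferon response element in 3.44% and both together in 0.183%. Cxcl10 also held the AP-1 element TGANTCA, 74 bases before the start, and Cxcl9 held it downstream of the start. That element occurred in 7.81% of all windows. Cxcl9, the other interferon-induced ligand, held no match to the NF-kappaB consensus or the interferon response element. Cxcl14 held a GAAANNGAAA match and the STAT element TTCNNNGAA, which occurred in 8.3% of all windows. Cxcl12 and Cx3cl1 held none of the 5 motifs searched, the fifth being the C/EBP element TTGCNNAA (10.8% of all windows). The Cx3cl1 window ran from 94771930 to 94772229, whereas the gene start used below is 94772009. Most of that window thus lies inside the gene, and few bases before the gene start were searched. A match is a run of letters and not a measured binding site.

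All 8 measured chemokines were higher in the library labelled Cre, where 49.9% of all genes compared lay above 0. Of the 8, 5 were at least 2-fold higher, against 0.734% of all genes, and 0 were at least 2-fold lower, against 0.0703%. The median difference of the 8 was 1.19 on the log2 scale and that of all genes was -0.00041. The 5 past 2-fold were both neutrophil-attracting ligands, both interferon-induced ligands and Cx3cl1. Cx3cl1 lay closest above the threshold, at 1.11, and Cxcl14 closest below it, at 0.49. At 4-fold or more, which 0.117% of all genes reached upward and 0.00781% downward, were 2 members, Cxcl1 and Cxcl5, both higher.

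**Figure D1:**
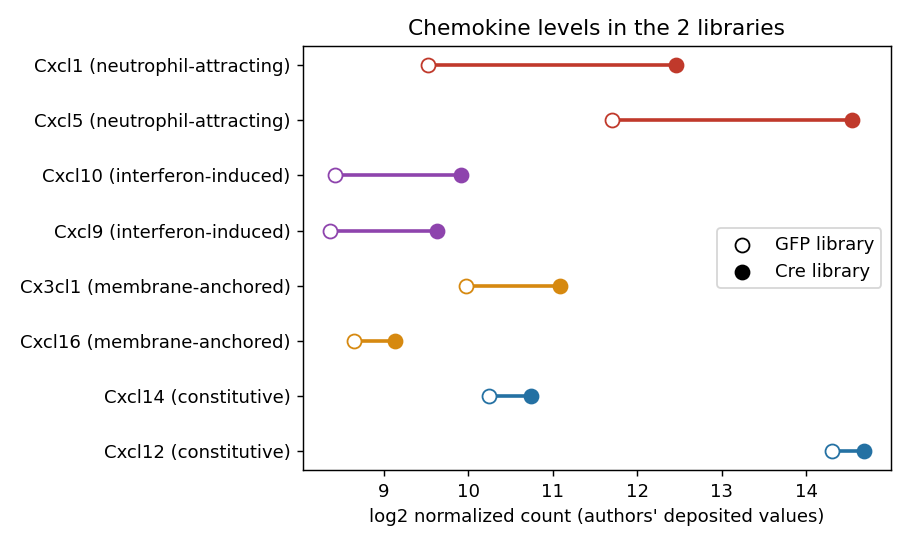
Log2 normalized count of each measured chemokine (horizontal axis) in the library labelled GFP (open circles) and the library labelled Cre (filled circles), 1 library each, grouped by role. The line is longest for Cxcl1 and Cxcl5, at 2.93 and 2.84, and shortest for Cxcl12, at 0.37.

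Cxcl1, the keratinocyte-derived neutrophil attractant (chromosome 5, 90891241 to 90893115, plus strand), reached a log2 value of 12.46 in the library labelled Cre against 9.53 in that labelled GFP. The difference of 2.93, or 7.62-fold, ranked 5 of 12809 genes. Of the 2281 genes whose mean log2 value lay within 0.5 of that of Cxcl1, 0 were higher in the library labelled Cre by as much. Cxcl5, also called LIX in mice (chromosome 5, 90759360 to 90761624, plus strand), had 14.55 against 11.70. Its difference was 2.84, or 7.17-fold, and ranked 6. None of the 475 genes within 0.5 of its abundance was higher by as much. The 2 genes were within 0.09 of each other in their difference although Cxcl5 had the higher level per kilobase of exon in both libraries.

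The interferon-induced ligands lay between the neutrophil-attracting and the constitutive ones. Cxcl10 (chromosome 5, 92346638 to 92348889, minus strand) stood at 9.92 in Cre and 8.42 in GFP, by the labels. It differed by 1.496, or 2.82-fold. Cxcl9 (chromosome 5, 92321347 to 92328079, minus strand) had 9.63 against 8.37, which is a difference of 1.27, or 2.40-fold. Both are ligands of Cxcr3, which was not analysed here. Among genes of like abundance, 4 of 2371 were higher by as much as Cxcl10 and 10 of 2230 by as much as Cxcl9. Cxcl10 overlaps Art3 on the opposite strand. The overlap is of whole gene spans, and whether their exons overlap was not checked. The strand setting of the counting is not given in the sources used here, so whether reads of the pair were kept apart is unknown.

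The membrane-anchored ligands differed from each other. Cx3cl1, which binds Cx3cr1 on monocytes and microglia (chromosome 8, 94772009 to 94782427, plus strand), had 11.09 against 9.97. Its difference was 1.11, or 2.16-fold, ranked 74 and was matched or passed by 15 of 2524 genes of like abundance. Cxcl16, a ligand of Cxcr6 that also takes up oxidized lipoprotein (chromosome 11, 70453983 to 70459984, minus strand), had 9.13 against 8.65. Its difference was 0.49, or 1.40-fold, and 74 of 2178 genes of like abundance (3.4%) were higher by as much. Genes lower by as much were not counted. Cxcl16 overlaps Zmynd15 on the opposite strand, whose own log2 values were 5.97 and 5.76.

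The constitutive ligands differed least. Cxcl12, the stromal ligand of Cxcr4 (chromosome 6, 117168535 to 117181367, plus strand), had a log2 value of 14.68 against 14.31. The difference was 0.37, or 1.30-fold, and 19 of the 136 genes within 0.5 of its abundance (14%) were higher by as much. Genes lower by as much were again not counted. Cxcl14, a chemokine of epithelia and stroma (chromosome 13, 56288643 to 56296551, minus strand), had 10.74 against 10.25. Its difference was 0.49, or 1.41-fold, and ranked 402.

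Set against each other by role, the median difference was 2.89 for the neutrophil-attracting ligands, 1.38 for the interferon-induced, 0.80 for the membrane-anchored and 0.43 for the constitutive ones, with 2 genes in each. The neutrophil-attracting median exceeded the interferon-induced by 1.51 and the constitutive by 2.45, and the interferon-induced median exceeded the constitutive by 0.95. The lowest neutrophil-attracting ligand, Cxcl5, lay 1.35 above the highest interferon-induced one, Cxcl10. The lowest interferon-induced ligand, Cxcl9, lay 0.77 above the highest constitutive one, Cxcl14, but only 0.15 above the highest membrane-anchored one, Cx3cl1. The membrane-anchored pair overlapped the constitutive pair, since Cxcl16 lay just below Cxcl14. None of these gaps could be tested with 1 library per group. Abundance differed between roles in part: Cxcl9 and Cxcl10 had mean log2 values of 8.998 and 9.17 and Cxcl5 had 13.12. Cxcl1 had a mean of 10.99, within 0.5 of Cxcl14 and Cx3cl1 (10.50 and 10.53), whose differences were 0.49 and 1.11 against its 2.93. The mean includes the library labelled Cre. In the library labelled GFP, Cxcl1 stood at 9.53 against 10.25 for Cxcl14 and 9.97 for Cx3cl1. The standard deviation of the difference over genes was 0.23 for means from 9 to 11 and 0.49 at 13 or more. The part of abundance in the gap between those roles was not tested. Cxcl12, with the highest mean log2 value of the 8 at 14.49, had the smallest difference.

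**Figure D2:**
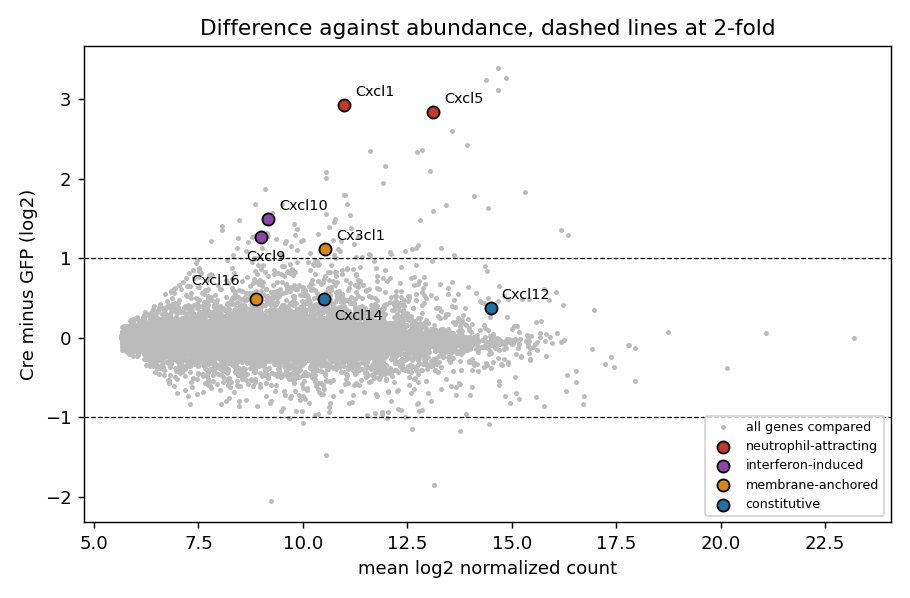
Difference between the libraries (Cre minus GFP, log2) against the mean log2 normalized count, with all 12809 genes compared in grey and the 8 chemokines coloured by role. Cxcl1 and Cxcl5 lie near the top edge of the cloud at 2.93 and 2.84, and Cxcl12, Cxcl14 and Cxcl16 lie under the dashed 2-fold line.

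Levels were compared between genes per kilobase of exon (all exons of the gene's coding transcripts in GENCODE M21, on the linear scale). In the library labelled GFP, Cxcl12 held 39.5% of the summed per-kilobase value of the 8 chemokines, Cxcl5 29.5%, Cxcl1 10.8% and Cxcl14 9.30%. Cx3cl1 held 3.97%, Cxcl10 3.15%, Cxcl16 2.07% and Cxcl9 1.59%. In the library labelled Cre, Cxcl5 came first with 55.3%, Cxcl1 second with 21.5% and Cxcl12 next with 13.4%. Cxcl14 held 3.42% there, Cxcl10 2.32%, Cx3cl1 2.25%, Cxcl9 1.0% and Cxcl16 0.758%. The summed value was 3.83 times as high in the library labelled Cre. The leading chemokine transcript by this measure was thus the homeostatic Cxcl12 in 1 library and the neutrophil-attracting Cxcl5 in the other. Before division by length, Cxcl12 had the highest log2 value of the 8 in both libraries. It stood at 14.68 against 14.55 for Cxcl5 in the library labelled Cre, and at 14.31 against 11.70 in that labelled GFP. The change of leader therefore depends on the exon lengths used, 7160 bases for Cxcl12 and 1575 for Cxcl5. On a log2 per-kilobase scale, Cxcl12 went from 11.47 to 11.84 and Cxcl5 from 11.05 to 13.89. No spread is available to say which neighbours in either order differ, and Cxcl10 changed places with Cx3cl1, as did Cxcl9 with Cxcl16.

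Of the measured members, Cxcl1, Cxcl5, Cxcl9 and Cxcl10 lie on chromosome 5 in a pair of clusters, so the genes around them were compared as well. Within 500 kb of Cxcl1 and outside the family, 3 genes were compared. Ereg, the growth factor gene epiregulin, was 2.34-fold higher (10.63 against 9.40), while Mthfd2l, a mitochondrial folate enzyme gene 38 kb away, differed by 0.02 and Rassf6 by -0.02. Pf4, the platelet chemokine gene between Cxcl5 and Cxcl1, differed by 0.39 (8.15 against 7.76) and was the 1 gene of 7 further CXC ligands in the table. Within 500 kb of Cxcl10, 12 genes outside the family were compared, and 0 of them reached 2-fold. Their median was 0.03, from -0.14 for Stbd1 to 0.81 for U90926, and Sdad1, 36 kb from Cxcl10, differed by 0.09. In both clusters most of the compared neighbours outside the family differed by far less than the chemokines, with Ereg and U90926 the highest of them.

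**Figure D3:**
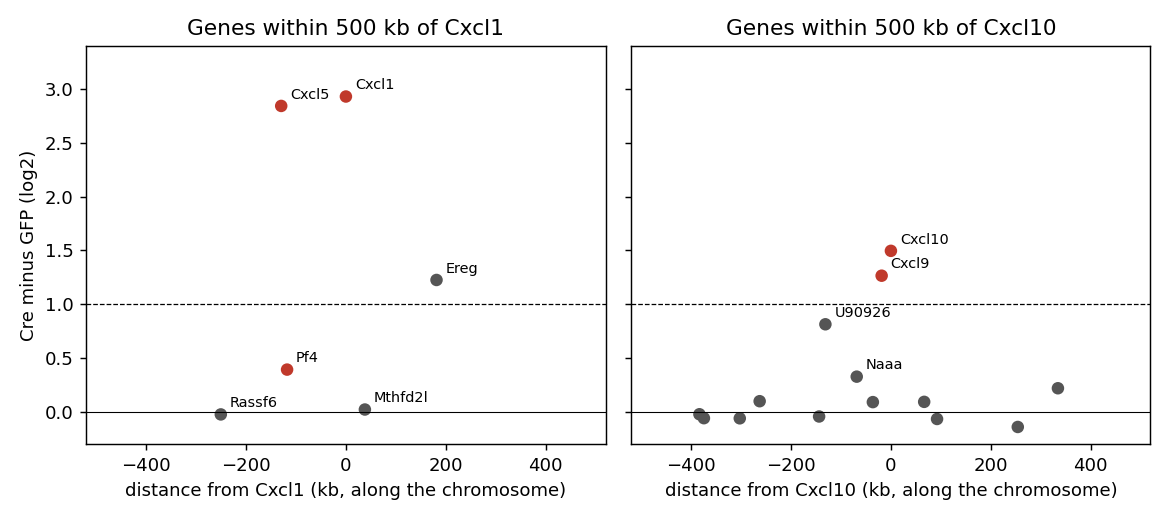
Difference (Cre minus GFP, log2) of each gene compared within 500 kb of Cxcl1 (left) and of Cxcl10 (right), against its distance along the chromosome, with CXC chemokines in red and other genes in grey. Beside the chemokines, Ereg alone lies above the dashed 2-fold line, at 1.23.

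Ereg also lies within 500 kb of Cxcl5, and around Cxcl9, Cxcl12, Cxcl14, Cxcl16 and Cx3cl1 no neighbour outside the family that was compared reached 2-fold. Around Cxcl16, 29 genes ranged from -0.16 to 0.27, and around Cxcl14, 5 genes ranged from -0.20 to 0.15. Of the 15 around Cx3cl1, the highest was Nlrc5, a regulator of MHC class I genes, at 0.59 and the lowest Herpud1 at -0.44. The 1 gene compared within 500 kb of Cxcl12 was Rassf4, which differed by 0.83.

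AU-rich elements, which shorten the life of an mRNA, separated Cxcl1 from most other measured members. In the longest annotated 3′ UTR of each gene, the pentamer ATTTA occurred 7 times in Cxcl1 (595 bases), 5 times in Cxcl5 (1114 bases), 3 times in Cxcl9 (2455 bases) and 3 times in Cxcl10 (999 bases). It occurred 4 times in Cxcl12 (5191 bases), 2 times in Cxcl16 (1424 bases), 1 time in Cx3cl1 (1874 bases) and 0 times in Cxcl14 (1152 bases). Of 1234 genes with a 3′ UTR within 20% of the length of that of Cxcl1, 0.486% held as many pentamers, against 10.3% for Cxcl5 and 89.4% for Cxcl12 among genes of their own lengths. The overlapping pair ATTTATTTA occurred 2 times in Cxcl1 and in no other measured member, and 2.92% of genes with a like 3′ UTR length held it. The stretch at bases 83 to 107 of the Cxcl1 3′ UTR is shown because it holds 3 pentamers, in capitals, in GENCODE M21.
Cxcl1 3′ UTR: agggtcctATTTATTTAtgtATTTA

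Among 8 genes listed as mRNA decay or stability factors, not all of which act through AU-rich elements, 1 was higher by 2-fold or more. None was lower by as much. Of all genes compared, 0.734% were higher and 0.0703% lower by 2-fold or more. The gene past 2-fold among the 8 was Zc3h12a, which encodes the RNase regnase-1, at 10.50 against 9.06 (2.70-fold). Zfp36l1, a decay factor gene, was 1.51-fold higher, the stabilizing factor gene Arid5a was 1.44-fold higher and Zfp36l2 differed by -0.24. The median of the 8 was 0.06.

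Of 12 chemokine receptor genes listed, some of them for other ligands, 5 were in the table. In either direction 0 of the 5 were past 2-fold, against 0.734% of all genes higher and 0.0703% lower. The median of the 5 was -0.10, the value of Ccrl1, a scavenging receptor of CC chemokines. Cxcr7, now named Ackr3, the scavenging receptor of Cxcl12, had 10.71 against 9.78, a difference of 0.93 or 1.90-fold. Cxcr2, the receptor of Cxcl1 and Cxcl5, was level at 8.16 against 8.07, and Cxcr4, the signalling receptor of Cxcl12, was low at 6.12 against 6.29. Cx3cr1, the receptor of Cx3cl1, had 7.83 against 8.16, a difference of -0.34.

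Genes of proteases that shed or trim chemokines, listed with the iRhom genes Rhbdf1 and Rhbdf2, were above 0 in 7 of 7 measured genes, with a median of 0.37 and 2 at least 2-fold higher. Mmp9, a gelatinase that trims neutrophil-attracting chemokines, had 11.32 against 10.10 (2.33-fold). Rhbdf2, whose product iRhom2 is no active protease but brings ADAM17 to the cell surface, had 10.01 against 8.95 (2.08-fold). Adam17 itself, a sheddase of Cx3cl1, differed by 0.37, and Adam10, which sheds Cx3cl1 and Cxcl16, by 0.09.

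Genes of pathways known to induce neutrophil-attracting ligands were higher in part. Whether they act on those ligands in these cultures was not tested. Of 14 genes listed as NF-kappaB subunits and inhibitors, 13 lay above 0, against 49.9% of all genes. The list also holds the kinase complex genes Ikbkb, Chuk and Ikbkg, which are neither, and Chuk was the gene not above 0. At 2-fold or more, 4 were higher and 0 lower, against 0.734% and 0.0703% of all genes, and the median was 0.60. All 4 are regulators and not subunits that carry the activity: Nfkbiz, the cofactor IkappaB-zeta, at 11.89 against 10.21 (3.21-fold), Bcl3 at 2.44-fold, Nfkbia, the inhibitor IkappaB-alpha, at 2.25-fold, and the ubiquitin-editing inhibitor gene Tnfaip3 at 2.19-fold. The subunit genes Nfkb2, Relb, Nfkb1, Rela and Rel differed by 0.72, 0.66, 0.53, 0.33 and 0.12. Of 15 interleukin-1, interleukin-17, TNF and Toll receptors and adaptors, 13 lay above 0 and 2 passed 2-fold, the lipopeptide receptor gene Tlr2 at 2.91-fold and the TNF receptor gene Tnfrsf1b at 2.18-fold. Their median was 0.29, with Il1r1, the interleukin-1 receptor gene, at 0.58. Among 4 C/EBP factor genes, Cebpd was 2.73-fold and Cebpb 1.89-fold higher, while Cebpa and Cebpg differed by -0.12 and -0.13.

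Genes of pathways known to induce the interferon-induced ligands were compared in the same way, and their part was likewise not tested. All 15 genes compared in the list of interferon receptors, STATs and IRFs lay above 0, against 49.9% of all genes. The list also holds Jak1, Jak2, Tyk2 and Socs1, which belong to none of these classes. None of the 15 reached 2-fold, against 0.734% of all genes higher and 0.0703% lower, and the median was 0.19. Irf7 had 9.56 against 8.79 (1.71-fold), Stat2 was 1.49-fold, Ifnar2 1.41-fold and Irf1 1.35-fold higher. Among 8 genes of the stromal cells that make Cxcl12, 3 lay above 0 and 0 reached 2-fold, with a median of -0.08. The oxygen-regulated factor gene Hif1a, at 0.46, and Pdgfra, at 0.43, were its highest members, and Pdgfrb, at -0.35, its lowest.

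**Figure D4:**
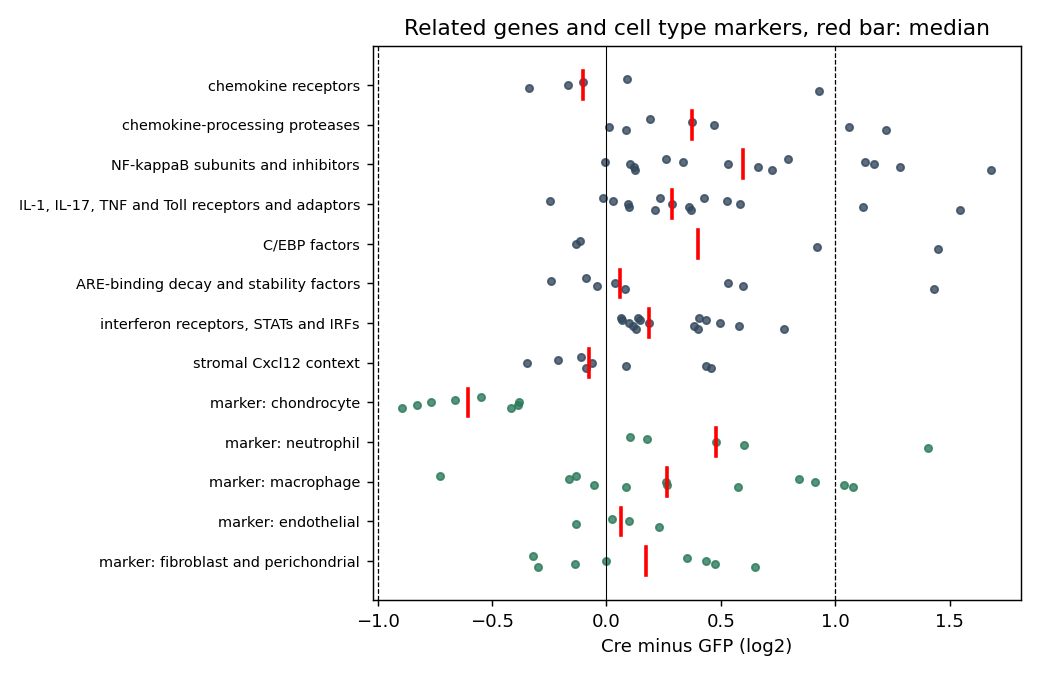
Difference (Cre minus GFP, log2) of each gene compared in the lists of related genes (dark) and cell type markers (green), with the median of each list as a red bar and dashed lines at 2-fold. The NF-kappaB list has 4 genes beyond the upper line, and the 8 chondrocyte markers all lie below 0.

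Markers of other cells that make or answer these chemokines were measured alongside. In bulk RNA, a change in the share of a cell type and a change in RNA per cell cannot be told apart. Of 12 macrophage markers, 12 were in the table and 8 lay above 0, against 49.9% of all genes compared. The summed linear value of the 12 was 49829 in the library labelled Cre against 31711 in that labelled GFP. Emr1, the F4/80 antigen gene, was 2.11-fold and the lipopolysaccharide co-receptor gene Cd14 2.06-fold higher, while Csf1r, the receptor gene that defines the lineage, differed by 0.08 and Cd68 by -0.05. The lysozyme gene Lyz2, at 14.82 against 13.98, contributed most to that sum. The median of the list was 0.26, and 4 markers lay below 0, among them the mannose receptor gene Mrc1 at -0.73 and the complement genes C1qa at -0.16 and C1qb at -0.13. Of 9 neutrophil markers, 5 were in the table, all above 0, with a summed linear value of 1123 against 671. The listed genes Ly6g, Mpo, Elane and Retnlg were not among them. Camp, an antimicrobial peptide gene, was 2.65-fold, S100a8 1.52-fold and S100a9 1.39-fold higher. Ngp (6.29 against 6.12) and Csf3r (6.04 against 5.94) were low in both libraries and differed little. None of 8 T cell and natural killer cell markers was in the table. The 4 endothelial markers compared had a median of 0.06 and the 8 fibroblast and perichondrial markers 0.17. The part of macrophages or other cells in the chemokine differences was not tested.

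Genes nearest to a member in the plane of the 2 libraries' log2 values were listed for 1 member of each of 3 roles. Nearest to Cxcl1 were Serpina3n (distance 0.80), the monocyte chemokine gene Ccl7 (0.81) and the protease inhibitor gene Slpi (0.86), and 0 genes lay within 0.5 of it. Nearest to Cxcl10 were A4galt, the zinc transporter gene Slc39a8 and the chemokine gene Ccl6, at 0.14, 0.15 and 0.16. Nearest to Cxcl12 were the glycolytic gene Aldoa (0.02), Aebp1 (0.08) and Slc7a2 (0.12), with 66 genes within 0.5. With 2 libraries, nearness says only that a gene had similar values in both.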

How the data were processed

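RNA of 2 cultures was sequenced after TRIzol extraction and Illumina TruSeq v2 mRNA library preparation, per the labels' protocols. Tools named in the submitters' processing notes, without their roles, are TopHat2 2.0.6, HTSeq and bcl2fastq 1.8.4, with the mouse build mm10. The deposited table holds normalized gene counts on a log2 scale, 1 column per library, and no raw counts. The heading of the difference column points to a regularized log, which shrinks differences of low genes, but the transform is not given in the sources used here. No test was possible with 1 library per group.

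Differences were computed with pandas 2.3.3 for 12809 genes whose mean reached 50 or more in linear units (5.64 on the log2 scale). Of 13138 genes, 12982 (98.8%) matched GENCODE M21 by chromosome and symbol or RefSeq synonym. None of the measured members shared a 50-base stretch with the other CXC transcripts compared. Members, lists, motifs and settings were chosen with earlier results of these data known. Named genes were all members, Hdac3, neighbours within 500 kb, the nearest genes, and up to 4 largest differences per list. Genes named beyond these (in the receptor, protease, NF-kappaB, interferon and marker lists) were chosen after their values were seen. 1 gene of the interferon receptor list is not reported here. Alternatives were other fold thresholds, minimums, scalings and the mean. The code that counts genes past a fold was run on simulated data with planted differences well past the threshold. That run checks the code only and says nothing of differences near the threshold.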

Additional observations from a re-analysis of the deposited data

How the results depend on the processing

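Scaling by the median, by equal totals or by equal totals without Rn45s and Lars2 shifted every gene by 0.00041 to 0.015, and all 8 chemokines kept their direction and their side of 2-fold. The counts depended on the fold threshold. At 1.5-fold, 288 of all genes were higher and 122 lower, with 5 chemokines higher, and at 4-fold 15 were higher and 1 lower, with 2 chemokines higher. At a minimum 10 times higher, which Cxcl16 does not pass, the membrane-anchored ligands were represented by Cx3cl1 alone, at 1.11, and the interferon receptor, STAT and IRF list had a median of 0.39. The receptor list turned from -0.10 to 0.93 there, with 1 gene left, and to 0.081 by its mean. By the mean, the interferon receptor, STAT and IRF list was 0.29, the protease list 0.49, the C/EBP list 0.53 and the list of mRNA decay or stability factors 0.29. With the longest transcript as gene length, an alternative chosen after seeing the data, Cxcl12 held 45.1% of the per-kilobase value in the library labelled GFP. Of 168 alternative values in all, 154 moved by less than 0.1 on the log2 scale, 1.5 times for counts or 5 percentage points for shares. Many of these could not have moved. The scalings shifted differences and medians by at most 0.015, and for role groups of 2 genes the mean equals the median. The count of 154 is therefore no measure of robustness. Pseudocounts were not needed on a log scale. No paired analysis was possible because there was 1 library in each group.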
